A study of Mus musculus with 24 samples.

Results

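Long noncoding RNAs that are not imprinted were followed in nuclei sorted from the spinal dorsal horn of mouse pups. The 8 genes asked for were Malat1, Neat1, Miat, Snhg11, Rmst, Gas5, Pvt1 and Pantr1, taken by gene symbol from the deposited expression tables. Of these, 7 were found in each of the 4 tables, among 15709 genes found in any table, and Snhg11 was not analysed here. All pups carried Aldh1l1-creERT2(+/-); R26-LSL-Sun1.GFP(+/-), in which Cre made from the promoter of the astrocyte gene Aldh1l1, and switched on by tamoxifen, releases a GFP fusion of the nuclear envelope protein Sun1. GFP-positive nuclei were sorted and their nuclear RNA was sequenced, with 1 library for each pup. Incised pups had a cut in 1 hindpaw on postnatal day 3 (P3), and naive pups had isoflurane alone. The libraries whose age and treatment labels concur were 4 incised and 4 naive at P4, 3 incised and 3 naive at P10, and 4 incised and 4 naive at P24, which is 1, 7 and 21 days after P3. The age or treatment labels of 2 further libraries conflict, and these libraries entered none of the main comparisons. Among the libraries used, P10 incised M1 and P24 naive M1 are male by title and female by the deposited sample sheet, and the sex of the title was used.

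A long noncoding RNA is a transcript that codes for no protein and acts as RNA, or through the act of its own transcription. Malat1 lies in nuclear speckles, bodies rich in splicing factors, and Neat1 is the scaffold of paraspeckles, bodies that hold RNA-binding proteins such as Sfpq and Nono. Miat, also called Gomafu, lies in spots of its own in neuronal nuclei and binds the splicing factor Sf1, while Rmst works with the transcription factor Sox2 in human neural progenitors. Gas5 carries small nucleolar RNAs in its introns and was described as a decoy for the glucocorticoid receptor Nr3c1 in human cells. Pvt1 is a neighbour of the growth regulator Myc, and Pantr1 is a neighbour of the neural transcription factor Pou3f3.

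The sequences shown are those that set the nuclear members apart as RNAs. Malat1 and the long transcript of Neat1 lack a normal poly(A) tail, and the 3′ end of each folds into a triple helix of a U-rich motif pair and an A-rich tract. Both are on the minus strand of chromosome 19 in the GRCm38 (mm10) build with GENCODE M21 annotation, Malat1 at chr19:5795690-5802672 and Neat1 at chr19:5824708-5845478. The Malat1 stretch (chr19:5795982-5796081) ends 292 bases before the annotated end of the transcript Malat1-201, and the Neat1 stretch (chr19:5824708-5824807) is the end of the 20771-base transcript Neat1-201. Capitals mark the 2 U-rich motifs, written with T, and the A-rich tract.
Malat1: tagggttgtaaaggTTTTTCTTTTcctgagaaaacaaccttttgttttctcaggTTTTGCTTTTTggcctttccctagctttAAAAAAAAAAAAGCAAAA
Neat1: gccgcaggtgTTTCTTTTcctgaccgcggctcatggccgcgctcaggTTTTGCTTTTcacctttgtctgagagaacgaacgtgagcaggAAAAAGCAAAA
The third stretch is from the transcript Miat-205, positions 4931 to 5082 of 9163, read from GENCODE M21. Capitals mark TACTAAC, the letters of the splicing branch point that Sf1 binds.
Miat: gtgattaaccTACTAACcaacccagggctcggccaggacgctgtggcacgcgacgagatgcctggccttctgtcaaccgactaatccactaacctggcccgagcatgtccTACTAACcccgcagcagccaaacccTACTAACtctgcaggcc
The whole of Miat-205 holds 6 copies on its own strand, of which 3 are in this stretch. Among 76 annotated long intergenic noncoding transcripts of at least 5000 bases, 13 (17.1%) held TACTAAC at least once and 2 held it at least 6 times. A match of letters is a description and not a binding site.

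The tables hold values normalized by the authors for each library, and each table was normalized on its own. Scaling by depth alone would give every gene of a library the same ratio between tables, which was not so. In P10 naive M1 the value in the age table over that in the P10 table was 1.112 to 1.175 for most genes (median 1.155). Neat1 in this library lay below that range, at 554 in the age table and 516 in the P10 table. The estimated reads behind the value of a single gene are therefore approximate. Summed values per library lay between 3880251 and 6512585. The spacing of the lowest values gave an estimate of 1640000 to 4560000 reads per library, which is approximate, since 53.5% to 84.0% of the low values lay within 10% of a whole multiple of the estimated value of 1 read. All 13 astrocyte markers listed, such as Aldh1l1, Gfap and Aqp4, were in each table. Markers of other cells were present too and moved with age. In naive pups the summed value of 15 oligodendrocyte markers, such as Mbp, was at most 3929 at P4, then 13480 to 22183 at P10 and 89989 to 104135 in the P24 pups. The sum of 15 neuron markers lay between 7365 and 9786 at P4, between 5556 and 7713 at P10 and between 11394 and 15006 at P24, and the sum of 13 astrocyte markers between 68573 and 87172, 88511 and 124782, and 91292 and 135262 at the same ages. In sorted pools, a change in the share of nuclei of a type and a change in the RNA per nucleus cannot be told apart.

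Levels differed widely between the members. An order per kilobase depends on the transcript length used. For Neat1 the longest transcript has 20771 bases, while its values sum the short and the long transcript. Per kilobase of the longest annotated transcript, naive pups had in the order P4, P10 and P24 a mean Malat1 level of 27700 ± 2067, 49318 ± 2032 and 37262 ± 3956 normalized units (SD, n = 4, 3 and 4). Gas5 followed with 367 ± 34.4, 323 ± 10.1 and 325 ± 38.7 units per kilobase at P4, P10 and P24. At P4, Miat at 55.3 ± 7.63, Neat1 at 49.8 ± 17.2 and Pantr1 at 45.2 ± 18.8 units per kilobase had overlapping ranges of mean ± SD. Rmst at 28.2 ± 14.2 and Pvt1 at 16.2 ± 5.08 had the lowest means, and the range of Rmst overlapped those of Neat1, Pantr1 and Pvt1. At P24 the order among these was Neat1 at 115 ± 3.08, Miat at 49.1 ± 10.9, Rmst at 31.0 ± 1.45, Pantr1 at 29.7 ± 4.72 and Pvt1 at 22.7 ± 4.17 units per kilobase, with Rmst and Pantr1 within each other's SD. Malat1 alone made up 3.91% ± 0.31 of the summed values at P4, 6.42% ± 0.27 at P10 and 4.85% ± 0.49 at P24 in naive pups. The estimated reads behind a value in the naive libraries of the age table ranged from 74549 to 235740 for Malat1, from 209 to 1987 for Neat1, from 8.19 to 62.8 for Pantr1, from 8.92 to 80.4 for Rmst and from 6.08 to 63.8 for Pvt1.

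**Figure D1:**
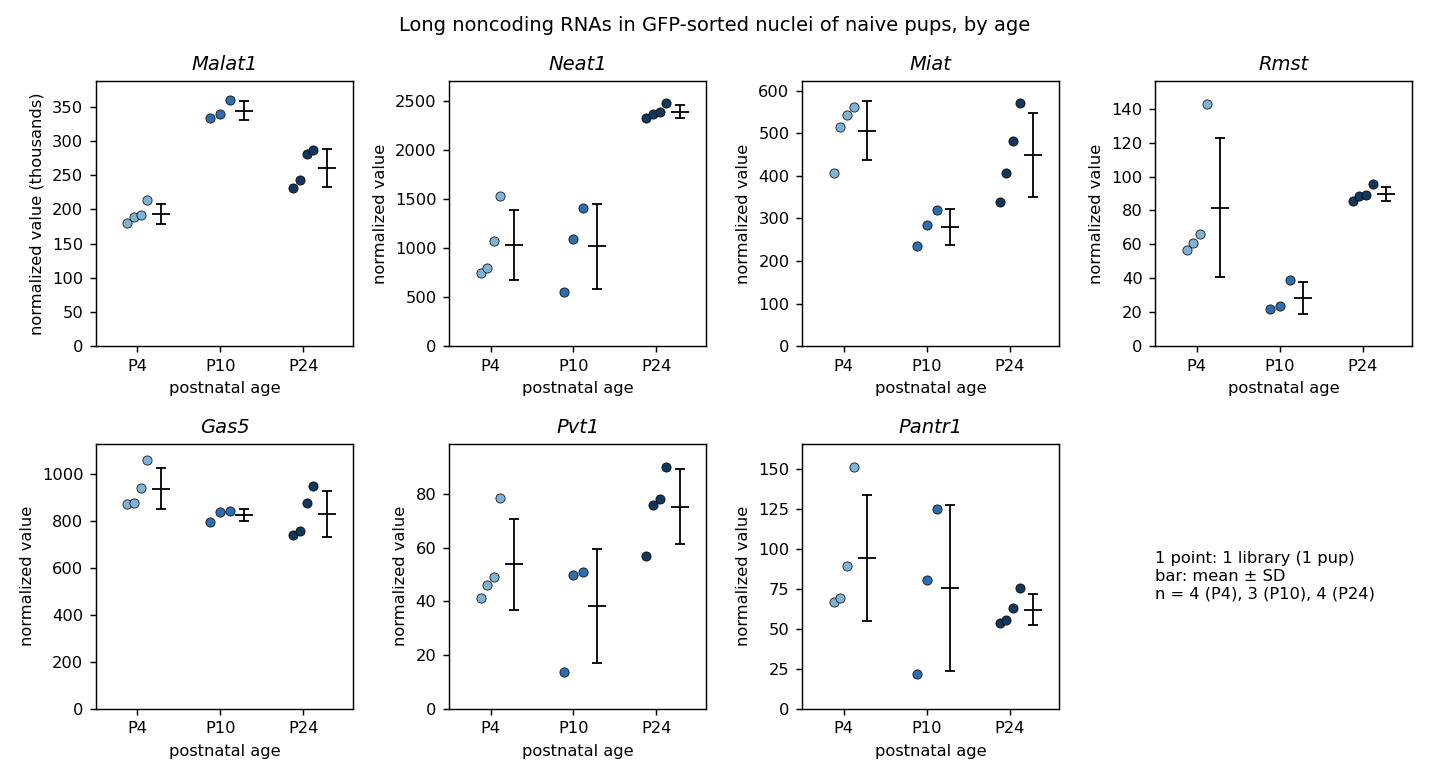
Normalized value of the 7 long noncoding RNAs in naive pups at P4, P10 and P24 (vertical axes, linear from 0, Malat1 divided by 1000), 1 point per library, with mean ± SD beside the points (n = 4, 3 and 4). Malat1 was highest at P10, Neat1 at P24, and Miat and Rmst were lowest at P10.

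Age was compared among naive pups, which asks how these RNAs change over the first weeks of life. Values were tested as log2(value + 1) with limma, with sex as a term, and p-values were adjusted by Benjamini and Hochberg over all 14982 genes tested, with 0.05 as the threshold of a call. Across the 3 ages 4 of the 7 members were called, Malat1, Neat1, Miat and Rmst, beside 26.9% of all genes. The call of Miat across the ages was lost without P10 naive M1 (limma adjusted p = 0.0966) and without the trend and robust settings of limma (adjusted p = 0.0535), while Pvt1 gained a call without P10 naive F1 (adjusted p = 0.0482) or without P10 naive M1 (adjusted p = 0.0400). The same 4 had an adjusted p under 0.05 in the authors' deposited table, where 28.6% of all genes did. That table also holds MB12, a library with conflicting labels that was left out here. Between P10 and P4, 3 of 7 members were called, 1 higher and 2 lower, against 13.7% of all genes (7.15% higher and 6.53% lower). Between P24 and P10, 4 of 7 were called, 3 higher and 1 lower, against 14.3% of all genes (8.86% higher and 5.43% lower). Between P24 and P4, 2 of 7 were called, both higher, against 19.4% of all genes (11.6% higher and 7.83% lower). The median log2 change of the members was -0.66 for P10 against P4, 0.66 for P24 against P10 and 0.25 for P24 against P4, where the median of all genes was -0.022, 0.032 and 0.00056.

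Malat1, the speckle RNA, was higher at P10 and at P24 than at P4, with its peak at P10. Its normalized values were 179662, 191720, 213676 and 188646 in the naive P4 pups, 360282, 339869 and 333008 in the naive P10 pups, and 242942, 286705, 230621 and 280535 in the naive P24 pups. All 3 ages were separate, with no overlap between any pair. With limma, the log2 change was 0.84 ± 0.12 (SE) for P10 against P4 (adjusted p = 7.56e-05), -0.41 ± 0.12 for P24 against P10 (adjusted p = 0.0253) and 0.42 ± 0.11 for P24 against P4 (adjusted p = 0.00821). The P24 against P10 call was lost when any of 5 libraries was left out, with limma adjusted p of 0.0636 without P10 naive F1, 0.0609 without P10 naive F2, 0.0741 without P10 naive M1, 0.0833 without P24 naive F2 and 0.0813 without P24 naive M1. It was also lost without the sex term (limma adjusted p = 0.0520), and this call and the one for P24 against P4 were lost without the trend and robust settings of limma (adjusted p = 0.161 and 0.0987) and with the replicate block (adjusted p = 0.0631 and 0.0975). In each library Malat1 had the highest value of the table, so quantile normalization gives it 1 value in all libraries and cannot test it.

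Neat1, the paraspeckle scaffold, rose between P10 and P24. Its normalized values were 1525, 748, 795 and 1071 in the naive P4 pups, 1089, 1409 and 554 in the naive P10 pups, and 2475, 2387, 2324 and 2365 in the naive P24 pups. The P4 and P10 values overlapped widely, while each P24 value was above all of them. The limma log2 change was 1.40 ± 0.25 for P24 against P10 (adjusted p = 0.00129) and 1.27 ± 0.23 for P24 against P4 (adjusted p = 0.000804), and -0.13 ± 0.25 for P10 against P4 (adjusted p = 0.780). The 2 calls held in all 22 alternatives run for each, with log2 changes of 1.01 to 1.62 and 1.04 to 1.43. The spread also differed by age, with a coefficient of variation of 34.5% at P4, 42.5% at P10 and 2.68% at P24. The oligodendrocyte markers moved with age as well: 15 of 15 were called higher with limma for P24 against P4 (11.6% of all genes), and 14 of 15 for P24 against P10 (8.86%). Within P4 and P10 the library with the highest Neat1 value had the lowest oligodendrocyte sum, P4 naive F1 with 2681 and P10 naive F2 with 13480. Each of these is 1 library, and no relation across libraries was tested. The part of these markers in the Neat1 change was not tested. The values are sums over a gene, so the short and the long Neat1 transcript cannot be told apart.

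Miat, the neuronal RNA that binds Sf1, was lowest at P10. Its normalized values were 406, 514, 563 and 543 in the naive P4 pups, 320, 284 and 236 in the naive P10 pups, and 340, 570, 406 and 482 in the naive P24 pups. These P10 values lay below all P4 and all P24 values, and P4 and P24 overlapped. The left-out library MB12, which is P10 by both of its labels, lay above these P10 values and within the P24 range. The limma log2 change was -0.85 ± 0.20 for P10 against P4 (adjusted p = 0.00752) and 0.66 ± 0.20 for P24 against P10 (adjusted p = 0.0314). Without P10 naive M1 neither was called (adjusted p = 0.0690 and 0.206 with limma), and the second was also lost without P24 naive F3 (limma adjusted p = 0.165) or P24 naive M2 (limma adjusted p = 0.0857). The second was lost as well without the trend and robust settings (adjusted p = 0.101), with the replicate block (adjusted p = 0.281) and with groups by the characteristics (adjusted p = 0.0582). For P24 against P4 the change was -0.19 ± 0.19 (adjusted p = 0.557).

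Rmst, the partner of Sox2, had the same low point. Its normalized values were 56.6, 143, 60.8 and 65.9 in the naive P4 pups, 21.9, 39.0 and 23.7 in the naive P10 pups, and 88.5, 89.1, 85.8 and 95.7 in the naive P24 pups. These P10 values lay below all others, and P4 naive F2 stood far above its group. The left-out library MB12, which is P10 by both of its labels, lay above these P10 values and within the P4 range. The limma log2 change was -1.48 ± 0.37 for P10 against P4 (adjusted p = 0.00979) and 1.72 ± 0.37 for P24 against P10 (adjusted p = 0.00262). Without P4 naive F2 the first was -1.14 and no longer called (limma adjusted p = 0.0690), while the second held in all 22 alternatives with log2 changes of 1.40 to 1.93. The P10 values rest on an estimated 8.92 to 17.4 reads per library. Some of the neuron markers moved with Miat and Rmst, and others did not. With limma, 7 of 15 were called lower and 1 higher for P10 against P4 (6.53% and 7.15% of all genes). For P24 against P10, 7 of 15 were called higher and 0 lower (8.86% and 5.43% of all genes). A low point at P10 was not particular to these neuron markers. The summed microglia markers reached no more than 776 in the naive P10 pups used. Every naive P4 pup had a microglia sum of 986 or more, and every naive P24 pup 873 or more. The part of the neuron and microglia markers in the changes of Miat and Rmst was not tested.

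Gas5, Pvt1 and Pantr1 were not called between any ages. Gas5, the small nucleolar RNA host, had normalized values of 1060, 873, 876 and 943 in the naive P4 pups, 843, 796 and 838 in the naive P10 pups, and 743, 877, 757 and 949 in the naive P24 pups. The P10 values were just below the P4 values without overlap, with a limma log2 change of -0.18 ± 0.15 (95% interval -0.50 to 0.14, adjusted p = 0.487). Pvt1 ranged from 41.1 to 78.6 in naive P4 pups, from 13.6 to 51.0 in naive P10 pups and from 56.7 to 90.1 in naive P24 pups. Its P24 values lay above all P10 values, with a limma log2 change of 1.16 ± 0.43 and an adjusted p of 0.0798, with 0.0310 without P10 naive F1 and 0.0297 without P10 naive M1. Without P10 naive F2 the change was 0.55 (limma adjusted p = 0.346). Pantr1 ranged from 67.0 to 151 in naive P4 pups, from 21.7 to 125 in naive P10 pups and from 53.7 to 75.5 in naive P24 pups, and all ages overlapped. In all, 4 of 7 members did not overlap between P10 and P4 (19.6% of all genes), 5 of 7 between P24 and P10 (22.5%) and 2 of 7 between P24 and P4 (26.7%).

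The proteins and genes these RNAs are tied to were read from the same fits. Of 18 paraspeckle proteins tested, 4 were lower and 0 higher for P24 against P4, where 7.83% of all genes were lower and 11.6% higher, with a median log2 change of -0.30. Among them were Sfpq at -0.75 ± 0.18 (limma adjusted p = 0.00321), Hnrnpa1 at -0.95 ± 0.22 (adjusted p = 0.00478) and Matr3 at -0.47 ± 0.14 (adjusted p = 0.0203), all of them RNA-binding proteins. Nono, the partner of Sfpq in paraspeckles, was at -0.33 ± 0.19 and was not called (limma adjusted p = 0.250). Of 19 nuclear speckle proteins, 5 were lower and 0 higher for P24 against P4 (7.83% and 11.6% of all genes), with a median log2 change of -0.23, among them the splicing factors Sf3b1 at -0.65 ± 0.12 and Srsf6 at -0.80 ± 0.18. Son, a scaffold of speckles, was higher at P10 than at P4 by 0.45 ± 0.14 (limma adjusted p = 0.0395) and lower at P24 than at P10, at -0.62 ± 0.14 (adjusted p = 0.00481). Sf1, the splicing factor, was higher at P10 than at P4 by 0.59 ± 0.19 (limma adjusted p = 0.0423) and lower at P24 than at P10, at -0.87 ± 0.19 (adjusted p = 0.00310). Sox2 was lower at P24 than at P4, at -0.78 ± 0.24 (limma adjusted p = 0.0223), and Nr3c1 was not called between any ages, with log2 changes of -0.10 to 0.14.

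Of 16 neighbouring genes tested, 4 were higher and 0 lower for P24 against P4 (11.6% and 7.83% of all genes). Ppp1r16b, listed as a neighbour of Snhg11, had the lowest p among them, at 1.76 ± 0.17 (limma adjusted p = 5.32e-08). Frmd8, beside Neat1, was at 1.99 ± 0.24 (limma adjusted p = 1.55e-06), and Slc25a45 on the same stretch of chromosome 19 at 1.78 ± 0.36 (adjusted p = 0.000864). Tpst2, listed as a neighbour of Miat, was at 0.58 ± 0.20 (limma adjusted p = 0.0447). Pou3f3, beside Pantr1, was lower at P10 than at P4, at -1.12 ± 0.29 (limma adjusted p = 0.0112), where Pantr1 itself was at -0.68 ± 0.41 (adjusted p = 0.297). Myc, beside Pvt1, was not called between any ages. Of 18 small nucleolar RNA host genes tested, Gas5 included, 2 were called for P24 against P10 (14.3% of all genes), Snhg20 and Snhg3, both lower at P24 than at P10, at -0.72 ± 0.15 (limma adjusted p = 0.00185) and -0.64 ± 0.21 (adjusted p = 0.0392). Of 28 other long noncoding RNAs tested, 15 were called across the ages, where 26.9% of all genes were. Mir9-3hg, a host gene of the neural microRNA miR-9, had the lowest p among them for P24 against P4, at -2.20 ± 0.19 (limma adjusted p = 1.41e-08), and Cerox1, a regulator of mitochondrial complex I, was at 2.52 ± 0.23 (adjusted p = 3.02e-08).

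**Figure D2:**
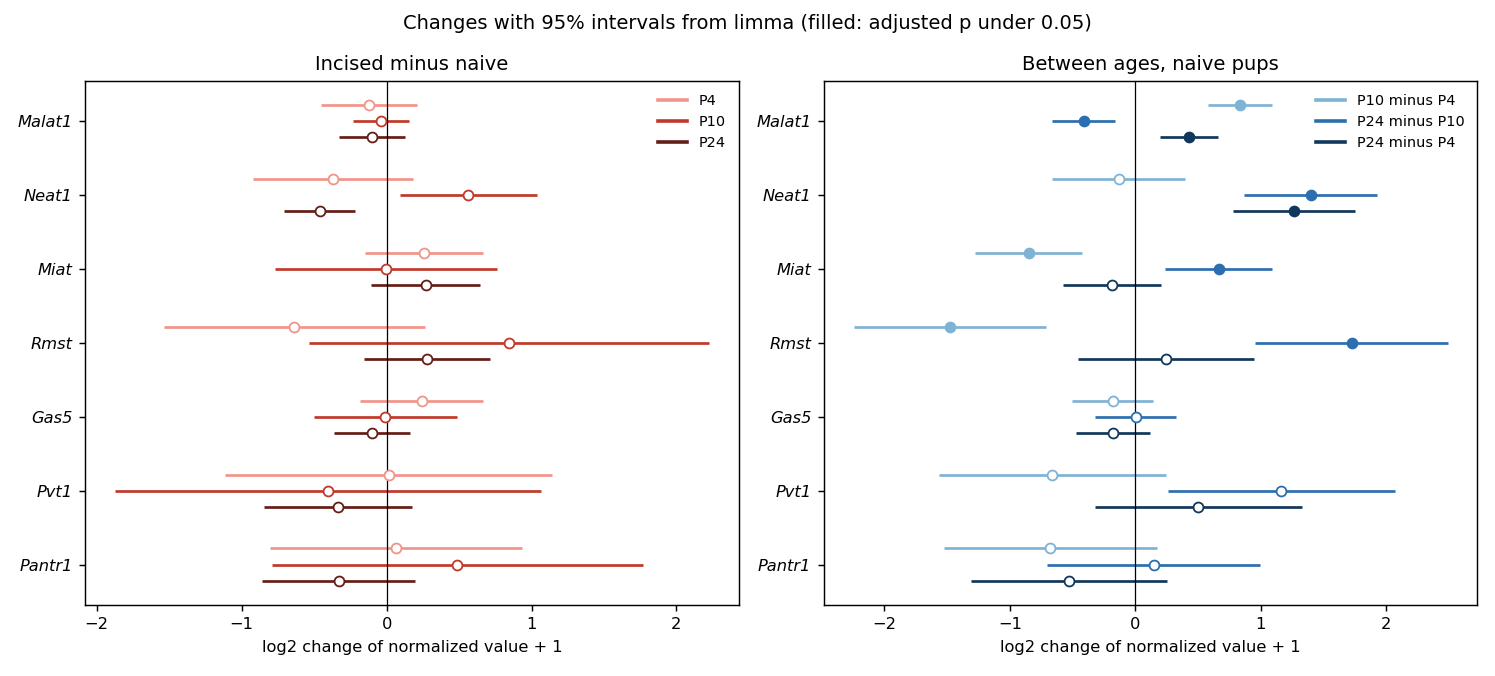
Log2 change of the normalized value + 1 for the 7 members, with 95% intervals from limma: incised minus naive at each age (left) and between ages in naive pups (right), filled where the adjusted p was under 0.05. No incision change is filled, and the filled age changes belong to Malat1, Neat1, Miat and Rmst.

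Incision was compared with naive at each age, which asks whether an early skin wound alters the spinal nuclei. With limma, 0 of 7 members were called at P4 (0.0281% of all genes), 0 of 7 at P10 (0% of all genes) and 0 of 7 at P24 (0% of all genes). At an unadjusted p under 0.05 there were 0 of 7 at P4 (8.01% of all genes), 1 of 7 at P10 (4.39%) and 1 of 7 at P24 (10%), Neat1 both times. In the authors' deposited table no member had an adjusted p under 0.05 either, where 0.534%, 0.0146% and 0.0525% of all genes did at P4, P10 and P24. Their P10 table also holds MB12 and MB16, the libraries left out here. The median log2 change of the members was 0.016 at P4, -0.0041 at P10 and -0.10 at P24, where the median of all genes was -0.023, 0.0087 and -0.019. Groups did not overlap for 1 of 7 members at P4 (5.90% of all genes), 0 of 7 at P10 (9.48%) and 1 of 7 at P24 (4.96%).

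Neat1 gave the lowest p of any member, at P24. Its normalized values were 2600, 1980, 1625 and 1861 in the incised P24 pups, against 2834, 2728, 2694 and 2691 in the naive P24 pups. All 4 incised values lay below all 4 naive values, and the naive values were close together. The limma log2 change was -0.46 ± 0.12 (95% interval -0.70 to -0.22), with an unadjusted p of 0.000485, the 27th lowest of 15246 genes, and an adjusted p of 0.255. Over 17 alternatives the log2 change lay between -0.59 and -0.36 and the adjusted p between 0.0853 and 0.638. In the authors' deposited table the change was -0.396 with an adjusted p of 0.348. The summed oligodendrocyte markers were lower too, at 79048 to 94180 in incised P24 pups against 104061 to 118861 in naive P24 pups, with 15 of 15 markers negative, 13 of them at an unadjusted p under 0.05 and 0 called with limma. The incised library with the lowest oligodendrocyte sum, F1 with 79048, had the highest Neat1 value of its group. It is 1 library, and no relation across libraries was tested. The sum of precursor markers was 8274 to 10518 in incised P24 pups and 10521 to 13674 in naive P24 pups. The astrocyte sum was 100656 to 131560 in incised and 106169 to 155299 in naive P24 pups. The part of these markers in the Neat1 difference was not tested.

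**Figure D3:**
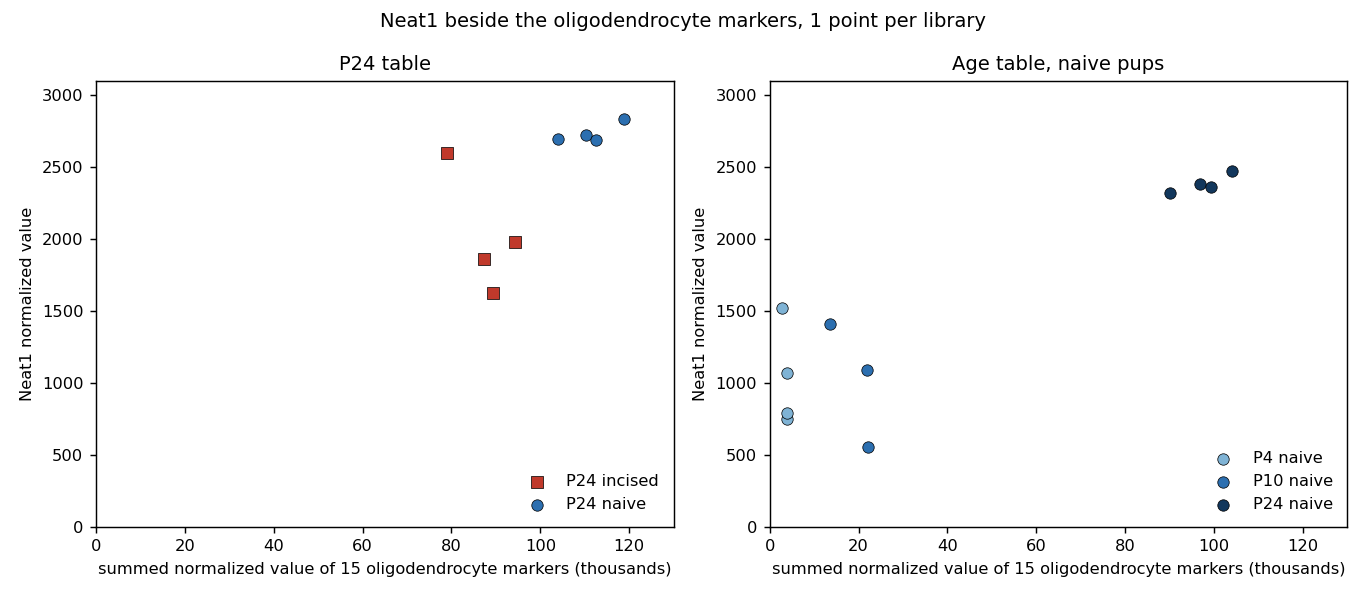
Normalized Neat1 value (vertical axis) against the summed value of 15 oligodendrocyte markers divided by 1000 (horizontal axis), 1 point per library, at P24 in incised and naive pups (left) and over the ages in naive pups (right). At P24 the incised points lie below and left of the naive points, and in naive pups the P24 points stand apart from P4 and P10 on both axes.

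At the earlier ages Neat1 did not separate the groups. At P4 it had 517, 848, 640 and 636 in incised pups, against 1280, 625, 663 and 897 in naive pups. At P10 it had 1815, 736 and 686 in incised pups, against 996, 1310 and 516 in naive pups. At both ages the groups overlapped. The limma log2 change was -0.37 ± 0.26 at P4 (adjusted p = 0.739) and 0.56 ± 0.23 at P10 (unadjusted p = 0.0209, adjusted p = 0.9998). The P10 log2 change was 0.15 without the sex term and 0.18 with groups taken from the titles. It was also 0.15 with the sexes of the sample sheet, which gives P10 incised M1 (Neat1 at 736) as female.

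Rmst was the member whose groups did not overlap at P4. It had 44.7, 38.1, 29.4 and 41.8 in incised P4 pups, against 48.4, 121, 51.6 and 56.2 in naive P4 pups. The highest incised value was just below the lowest naive value. The limma log2 change was -0.64 ± 0.42 (adjusted p = 0.730), and -0.43 without naive F2. At P10 Rmst had 54.2, 36.7 and 28.6 in incised pups, against 18.8, 34.0 and 20.7 in naive pups, and at P24 164, 109, 128 and 105 in incised pups, against 101, 101, 99.0 and 108 in naive pups. These groups overlapped, and the log2 changes were 0.85 ± 0.67 at P10 and 0.28 ± 0.21 at P24 (adjusted p = 0.9998 and 0.683 with limma). The sums of oligodendrocyte precursor markers at P4 did not overlap, at 6052 to 7691 in incised pups and 4153 to 5858 in naive pups. Among these markers Bcan had the lowest adjusted p, at 0.42 ± 0.15 (limma adjusted p = 0.535), so none was called. Cspg4 alone went the other way, at -0.14 ± 0.42. The sums of the mural markers did not overlap either, at 708 to 986 in incised pups and 341 to 523 in naive pups. Among the mural markers the largest log2 changes were those of Acta2 (2.68 ± 0.47, limma adjusted p = 0.0714) and Tagln (1.90 ± 0.42, adjusted p = 0.211). Pdgfrb and Rgs5 were at 0.58 ± 0.37 and 0.33 ± 0.38. Cspg4, Kcnj8 and Abcc9 went the other way, at -0.14 ± 0.42, -0.25 ± 0.64 and -0.21 ± 0.55. The part of the precursor and mural markers in the P4 values was not tested.

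**Figure D4:**
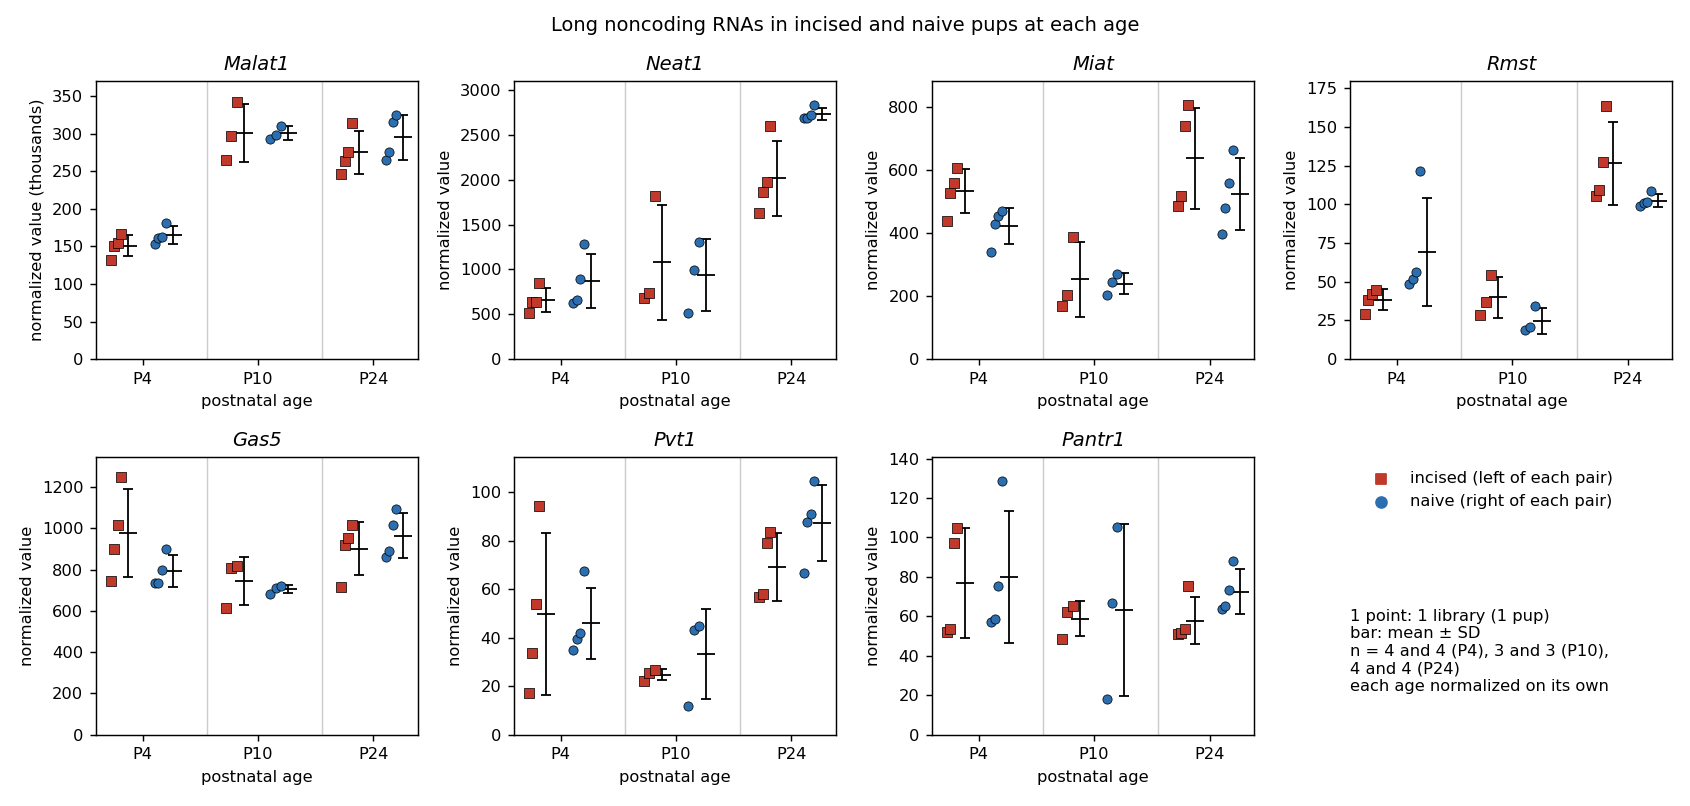
Normalized value of the 7 long noncoding RNAs in incised pups (squares, left of each pair) and naive pups (circles, right) at P4, P10 and P24, 1 point per library, with mean ± SD (n = 4 and 4, 3 and 3, 4 and 4). Each age was normalized on its own. The groups are apart for Rmst at P4 and for Neat1 at P24.

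Malat1 was the most tightly measured member. It averaged 150980 ± 14177 in incised and 164870 ± 11848 in naive pups at P4, 301550 ± 38738 in incised and 300640 ± 9426 in naive pups at P10, and 275460 ± 28715 in incised and 295320 ± 29544 in naive pups at P24 (SD, n = 4 and 4, 3 and 3, 4 and 4). The 95% intervals of the limma log2 change ran from -0.45 up to 0.21 at P4, from -0.23 up to 0.16 at P10, and from -0.33 up to 0.13 at P24. Miat averaged 534 ± 70.6 in incised and 423 ± 57.6 in naive pups at P4, and 637 ± 159 in incised and 525 ± 114 in naive pups at P24, with log2 changes of 0.26 ± 0.19 and 0.27 ± 0.18 (adjusted p = 0.751 and 0.642 with limma). Gas5 had 744, 1250, 901 and 1014 in incised P4 pups, against 898, 736, 737 and 798 in naive P4 pups. The incised values of Gas5 reached higher but overlapped the naive ones, with a log2 change of 0.24 ± 0.20 (adjusted p = 0.783 with limma). Pvt1 and Pantr1 had log2 changes of 0.016 ± 0.52 and 0.066 ± 0.40 at P4, -0.40 ± 0.72 and 0.49 ± 0.63 at P10, and -0.34 ± 0.25 and -0.33 ± 0.26 at P24. The 95% interval at P10 was -1.87 to 1.07 for Pvt1 and -0.79 to 1.77 for Pantr1, so larger differences than those of Neat1 lay within it. On simulated data of the same size and spread, the test found 6% of the genes changed by 1 log2 unit at P4, 0% at P10 and 63% at P24. Of the genes changed by 2 log2 units it found 50.5%, 1.02% and 91%. These are shares of the changed genes that passed the filter on low values.

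Of the gene lists tied to these RNAs, 0 genes were called for incision at any age with limma: 18 paraspeckle proteins, 19 speckle proteins, 11 partners, 18 small nucleolar RNA hosts and the other long noncoding RNAs, of which 26, 24 and 30 were tested at P4, P10 and P24. At an unadjusted p under 0.05 there were 1, 0 and 1 paraspeckle proteins and 4, 0 and 1 speckle proteins at P4, P10 and P24, where 8.01%, 4.39% and 10% of all genes were. Of the partners there were 1, 0 and 2, of the small nucleolar RNA hosts 1, 1 and 1, and of the other long noncoding RNAs 2, 0 and 5. Of the neighbours, 15, 14 and 17 were tested at P4, P10 and P24, with 0 called and 2, 1 and 5 at an unadjusted p under 0.05. The 5 at P24 were Slc25a45 at -0.63 ± 0.22, Frmd8 at -0.36 ± 0.16, Mrps9 at -0.37 ± 0.16, Gsdmc at 1.18 ± 0.51 and Myc. Myc was at -0.60 ± 0.22 at P24 (limma adjusted p = 0.383), and Nr3c1 at -0.031 ± 0.13 (adjusted p = 0.954).

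The difference of the incision effect between ages was fitted over 13200 genes found in all 3 incision tables. With limma, 0 of 7 members were called between P10 and P4 (0.0682% of all genes), 0 of 7 between P24 and P4 (0.0909%) and 0 of 7 between P24 and P10 (0.00758%). At an unadjusted p under 0.05 there was 1 of 7 for P10 against P4 (12% of all genes), 0 of 7 for P24 against P4 (7.55%) and 0 of 7 for P24 against P10 (5.51%). That 1 was Rmst, whose incision effect was higher at P10 than at P4 by 1.45 ± 0.50 (unadjusted p = 0.00763, adjusted p = 0.229). For Neat1 the incision effect at P24 minus that at P10 was -0.74 ± 0.39 (limma unadjusted p = 0.0674, adjusted p = 0.910). It was -0.32 without P10 incised F2, -0.41 without P10 naive M1 and -0.23 with groups by the titles.

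Across the 11 naive libraries of the age table, Miat and Rmst had a Pearson r of 0.72 on the log2 scale, and Malat1 had r of -0.63 with each of them. Neat1 and Malat1, neighbours on chromosome 19, had r of 0.02. These are descriptions, and the libraries share the 3 ages. Among 11555 genes with a mean of at least 50, those most like each member were Ccdc141, Smim26 and Lrp1 for Malat1 (r of 0.974, 0.963 and 0.949), Fam43a, Lin7b and Plekha2 for Neat1 (r of 0.956, 0.946 and 0.934), and Pnoc, Rbfox1 and Celf4 for Miat (r of 0.953, 0.936 and 0.934). Pnoc codes for a neuropeptide precursor and Rbfox1 and Celf4 for RNA-binding proteins of neurons. Those of Rmst were Armcx1, Abca5 and the synaptic vesicle gene Syp (r of 0.934, 0.931 and 0.929). For Pvt1, Carhsp1, Nkrf and Tmub1 (r of 0.939, 0.934 and 0.930), and for Pantr1, Cep290, Zfp81 and Hk2 (r of 0.927, 0.915 and 0.911), came out as most alike. Among those most like Gas5 were Swt1 and Farsa (r of 0.837 and 0.830).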

How the data were processed

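The authors aligned and counted reads with STAR and Salmon on mm10, per the submitters' processing notes, with versions not given in the sources used here. The authors deposited a normalized signal from DESeq2 per gene and library, with log2 fold changes and p-values of their own. Per the file headers, their filters asked for 10 counts in 4 or more samples, and later for expression over 20 and a coefficient of variation under 0.65. Here log2(value + 1) of genes with a mean of at least 10 was fitted with limma 3.58.1 (R 4.3.3, trend and robust, statmod 1.5.0), with group and sex as terms and 2-sided tests. Groups are those on which title and characteristics concur, which left out MB12 and MB16. The labels give 1 pup per library. The test was checked on simulated data with 200 changed genes. All members were named, and of each context list at most the 4 lowest p per comparison, with a fixed set of partners; a few of these genes are not reported here. The members, lists and rules were chosen with earlier results of these data known.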

Additional observations from a re-analysis of the deposited data

Results flagged for a closer look

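Among the 42 groups of 4 libraries tested (7 members in 6 groups), the highest or lowest library stood apart in 3, where chance flags about 1 in 20. Rmst was at 121.4 in the naive P4 pup F2, while the other 3 naive P4 pups lay between 48.4 and 56.2 in the P4 table. The same library stood apart for Rmst in the age table at 142.7, with the others between 56.6 and 65.9. This is the same measurement normalized again. Pantr1 was at 75.4 in the incised P24 pup F1, while the other 3 incised P24 pups lay between 50.9 and 53.4.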

How the results depend on the processing

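Of 361 values of the members' incision effects under the alternatives, 328 kept their direction and side of the threshold, and so did 570 of 616 values for age and 540 of 567 for the difference of effects. No called change turned its direction in any alternative, and the values that turned reached at most 0.769 in size for incision, 0.557 for age and 0.441 for the difference of effects. The lost age calls of Malat1, Miat and Rmst stand beside their results, and Pvt1 for P24 against P10 gained a call in 4 alternatives. The cause of these changes was not tested. Pvt1, Pantr1 and Rmst rest on the fewest estimated reads, which limits their counting precision.

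The incision log2 changes turned as follows. Pvt1 at P4 became -0.011 with median centring, -0.095 without the sex term and -0.055 with the replicate block. Pantr1 at P4 became -0.05 without the sex term and -0.339 with the replicate block. At P10, Miat became 0.336 with the replicate block, 0.115 by the titles, 0.1 by the characteristics and 0.042 by the sample sheet (groups and sexes, an alternative chosen after seeing the data). Gas5 at P10 became 0.067 without the sex term or with the sheet's sex, 0.009 with the replicate block and 0.115 by the titles. Pvt1 at P10 (0.055) and Gas5 at P24 (0.03) turned with the replicate block, and Malat1 at P10 (0.011) by the titles. For age, Gas5 in P24 against P10 became -0.012 with quantile normalization, -0.049 with median centring, -0.03 with the replicate block, -0.074 by the characteristics and -0.053 by the sample sheet, and Pantr1 became -0.041 with the sheet's sex and -0.089 by the sample sheet. For the difference of effects, Pvt1 in P10 against P4 became 0.061 (replicate block), 0.082 (characteristics) and 0.077 (sample sheet), and Miat in P24 against P4 became 0.116 (replicate block). By the titles, in P24 against P4 Neat1 became 0.148, Miat 0.057 and Pvt1 0.049, and in P24 against P10 Pvt1 became 0.211.

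Leaving out 1 library at a time gave these ranges where the direction turned. For incision at P4 they were -0.366 to 0.353 (Pvt1) and -0.123 to 0.221 (Pantr1), at P10 -0.336 to 0.327 (Miat), -0.188 to 0.17 (Gas5), -0.769 to 1.746 (Pantr1) and -0.2 to 0.124 (Malat1), and at P24 -0.197 to 0.004 (Gas5). For age they were -0.39 to 0.254 (Neat1) and -1.069 to 0.027 (Pantr1) for P10 against P4, and -0.063 to 0.068 (Gas5) and -0.557 to 0.538 (Pantr1) for P24 against P10. For the difference of effects they were -0.728 to 0.297 (Pvt1) and -0.369 to 0.732 (Pantr1) for P10 against P4, -0.164 to 0.128 (Miat), -0.037 to 0.086 (Malat1) and -0.649 to 0.124 (Pvt1) for P24 against P4, and -0.584 to 0.441 (Pvt1) and -1.111 to 0.03 (Pantr1) for P24 against P10.

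The number of genes called for incision at P4 was 4, and became 7 with a pseudocount of 10, 9 with a mean of at least 50, 15 with quantile normalization, 12 without the sex term, 0 without the trend and robust settings, and 0 to 8 without 1 library. At P10 it was 0, and became 1 with quantile normalization, 8 with the replicate block and 0 to 18 without 1 library. At P24 it was 0, and became 16 with the replicate block and 0 to 5 without 1 library. For age, P10 against P4 gave 1347 without the trend and robust settings, against 2050, and P24 against P10 gave 1287 with the replicate block, against 2140. For the difference of effects, P10 against P4 gave 31 by the characteristics, 32 by the sample sheet and 0 to 70 without 1 library, P24 against P4 gave 0, 2 by the titles, 2 by the sample sheet and 1 to 22, and P24 against P10 gave 0, 0 and 0 to 6 in the same order, against 9, 12 and 1. The replicate numbers mark no shared litter or day in the labels, and the deviations of same-numbered libraries had correlations of -0.123 to 0.064, so the block stands here as an alternative alone.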

Other observations

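The library MB12 is a P10 incised female by its title and a P10 naive male by its characteristics and the deposited sheet, and MB16 is a P24 naive female by its title and a P10 incised male by the others. In the P10 table Malat1 was at 320093 in MB12 and 288898 in MB16, Neat1 at 716 in MB12 and 1009 in MB16, and Miat at 313 in MB12 and 357 in MB16. Rmst was at 51.3 in MB12 and 52.3 in MB16, Gas5 at 887 in MB12 and 725 in MB16, Pvt1 at 21.2 in MB12 and 32.2 in MB16, and Pantr1 at 42.0 in MB12 and 36.1 in MB16. In the age table MB12 had 368044 for Malat1, 777 for Neat1, 367 for Miat and 59.3 for Rmst. Its Miat and Rmst values were above those of all P10 naive libraries used.

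Annotated genes on the opposite strand overlap exons of Malat1 (Gm37376), Miat (Gm26953), Rmst (Gm26700) and Pvt1 (the pseudogene H2afy3) in GENCODE M21. Use of strand in counting is not given in the sources used here, and without it reads of such a pair cannot be told apart.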
